A study of Mus musculus with 6 samples.

Results

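Ribosome biogenesis and nucleolar assembly factors are the proteins that transcribe, modify, cut and fold ribosomal RNA and join it to ribosomal proteins before the subunits leave the nucleus. A set of 49 of their genes was looked up by gene symbol among the 26656 genes measured in N2a cells, an established mouse neuroblastoma line, and every one was found once. The set held 9 genes of the small nucleolar ribonucleoproteins (snoRNPs), 5 genes of ribosomal RNA (rRNA) transcription, 15 genes of small subunit assembly and 20 genes of large subunit assembly. The libraries fall into NPM1 KD, from cells given a pLKO.1 plasmid with a short hairpin RNA against Npm1, and CTR, from cells given the same backbone with a non-target hairpin. All cells were labelled as wild type in genotype and were grown for 72 h after transfection, which the labels also give as 3 days in vitro. The protocol given with all libraries names puromycin (9.3 µg/ml) from 24 h after transfection for the knockdown experiments, without saying separately whether CTR cells received it. Each condition has 3 libraries of nanopore long-read cDNA. One hairpin was used, so an effect of that hairpin on other transcripts cannot be told apart from an effect of losing NPM1. The study's design text counts 3 biological replicates per condition and the treatment notes count 2, so the p-values below measure the spread between these libraries, some of which may be technical.

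NPM1 (nucleophosmin) is an abundant protein of the granular component, the outer layer of the nucleolus where late assembly of the large subunit takes place. RNA polymerase I makes one long precursor rRNA. Box C/D snoRNPs guide methylation of its sugars, box H/ACA snoRNPs guide the isomerization of uridine to pseudouridine, and the U3 snoRNP takes part in folding and cutting the part that becomes the small subunit. Separate sets of factors then build the small and the large subunit, and most are released again before export.

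Expression was read on 2 scales. The first is the deposited regularized log (rlog) value, which is on the log2 scale, is normalized for depth and is rounded to a whole number wherever it is 1 or more in size. A difference of 1 between rounded values therefore stands for an unrounded difference anywhere between 0 and 2. The second is the number of whole reads in each library, worked out from the authors' mean normalized count of each gene (a weighted sum of the 6 read numbers) together with the rlog values. Both are per gene and not per length, so a high or low mean below tells how many reads stand behind a gene and is not compared as abundance. This gave exactly 1 answer for 11119 genes, 92.4% of those with a mean below 30, and for 21 of the 49 members. At means of 10 to 30, where the 13 members tested on whole reads lie, it was 71.9%. It fell from 97.1% at means of 10 to 15 to 36.2% at means of 25 to 30, where Wdr74 and Ppan lie. Of the 2317 genes with 1 answer at means of 10 to 30, 207 had it from the mean alone, all at means below 15. For the rest the rlog values chose among the answers, so the 2 scales are not independent. Of the other 28 members, 26 had means above 30, where read numbers were not sought, and 2 (Pes1 and Mphosph10) had several answers.

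Npm1 had rlog values of 10, 10 and 10 in CTR against 8, 8 and 8 in NPM1 KD, a difference of -2 (SE 0.334, limma adjusted p = 3.23e-06). The 6 size factors, which measure relative depth, lay between 1.11 and 1.30 in CTR and between 0.784 and 0.961 in NPM1 KD, so all NPM1 KD libraries were shallower and the part of depth in the results was not tested. Of 10 neuroblast and neuron markers reported here, 6 (Gata2, Hand2, Isl1, Chga, Stmn2 and Tubb3) had a mean of at least 10 normalized counts, 3 were below 10 and Nefl was at 0. None of 5 fibroblast markers reached 10, and the 3 blood cell markers in the table were at 0.

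No member passed the test across all genes, and the members that differed between conditions were almost all higher in NPM1 KD. Of the 41 members with enough signal to be tested on the rlog scale, 26 had a higher mean in NPM1 KD, 14 had equal means and 1 had a lower mean. Among all 5752 genes tested, 24.6% were higher, 27.4% were lower and the rest were equal. The median difference was 0.33 for the members and 0 for all genes.

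In limma's test with Benjamini-Hochberg adjustment, 0 of 41 members were called, beside 0.487% of all genes tested (4 higher and 24 lower). An unadjusted p below 0.05 was reached by 10 members, all higher in NPM1 KD, which is 24.4% of those tested beside 6.07% of all genes in that direction. None of the 41 was lower at that level, beside 8.07% of all genes. Leaving out 1 library gave 4 to 8 such members, with 4 when NPM1 KD replicate 1 or 3 was left out, 5 without CTR replicate 1 and 6 without CTR replicate 2. With no filter there were 6 higher and 1 lower, Bop1 (a difference of -0.67, limma unadjusted p = 0.0361). For 4 members, Imp4, Wdr75, Rrp9 and Noc3l, every NPM1 KD library lay above every CTR library. This is 9.76% of the members tested beside 2.19% of all genes, and no member lay wholly below, beside 3.41% of all genes. Noc3l passed the filter only through its NPM1 KD values, so it had to differ, and without it 25 of 40 members were higher, 9 were at an unadjusted p below 0.05 and 3 did not overlap. Dropping the allowance for rounding or the trend of the variance from the fit gave calls for these 4 members, so whether any member was called depended on how the variance of rounded values was set.

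**Figure D1:**
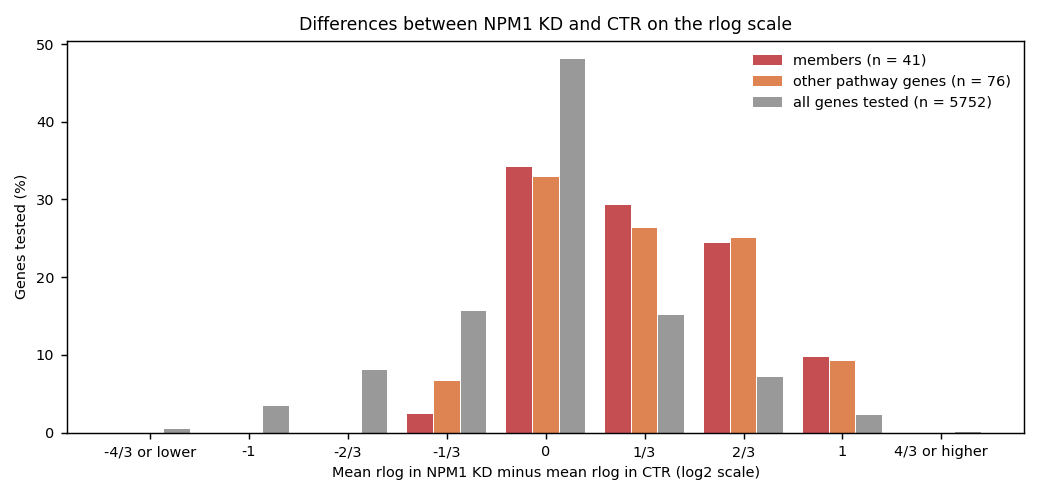
Share of genes (vertical axis, percent of the genes tested in each set) at each difference between the mean rlog of NPM1 KD and of CTR (horizontal axis, log2 scale, in steps of 1 rounded unit over 3 libraries). Red bars are the 41 members, orange bars the 76 other genes of the pathway and grey bars all 5752 genes; 34.1% of the members and 48.0% of all genes sit at 0, and the members lie to the right of it with the exception of 1.

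Mean levels per library showed the same side for both assembly groups. Over the 9 small subunit members tested, the CTR libraries had a mean rlog of 4.67, 4.67 and 4.78, and the NPM1 KD libraries of 5.11, 5.00 and 5.22. Over the 18 large subunit members tested these means were 4.94, 4.94 and 5.17 for CTR and 5.33, 5.28 and 5.50 for NPM1 KD. In both groups the 3 NPM1 KD libraries lay above the 3 CTR libraries.

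Over the 9 snoRNP members CTR libraries had means of 5.56, 5.67 and 6.11 and NPM1 KD libraries of 6.33, 6.11 and 6.11, so the conditions met at the third CTR library. Over the 5 rRNA transcription members each CTR library stood at 5.4 and the NPM1 KD libraries at 5.6, 5.4 and 5.6, which also touch. The mean rlog of all genes tested was 5.31 in each CTR library and 5.27 to 5.30 in NPM1 KD, a difference of means of -0.02, beside 0.35 over the 41 members.

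**Figure D2:**
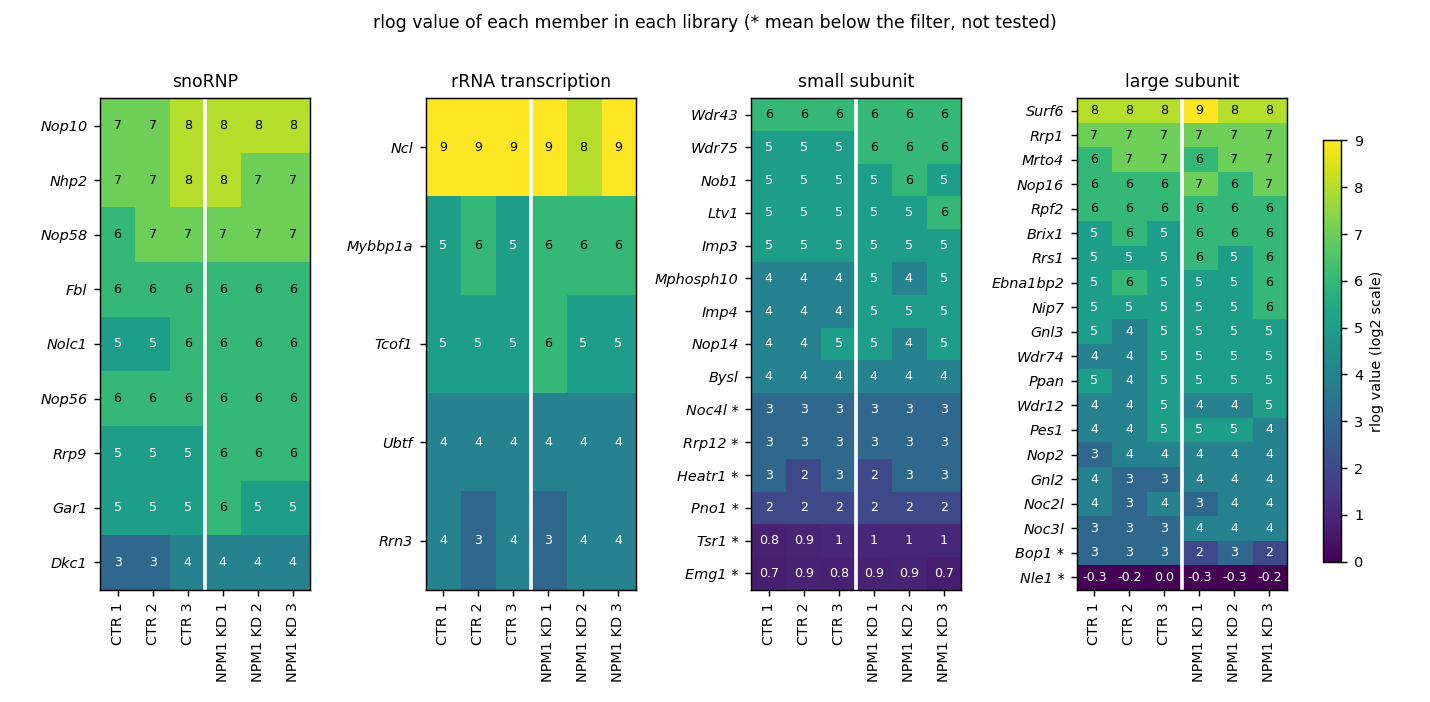
rlog value (colour and printed number, log2 scale) of the 49 members (rows, by role and then by mean normalized count) in the 3 CTR and 3 NPM1 KD libraries (columns). Asterisks mark the 8 members below the filter of a mean rlog of log2 of 10; Rrp9, Wdr75, Imp4 and Noc3l move up by 1 in all 3 NPM1 KD libraries, and 11 members have one value in all 6.

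Among the snoRNP genes 6 of 9 were higher in NPM1 KD, 3 were equal and none was called. Rrp9, the U3-specific protein that binds the box B/C motif of this snoRNA, had rlog values of 5, 5 and 5 in CTR against 6, 6 and 6 in NPM1 KD. Its difference was 1.00 (SE 0.336, limma adjusted p = 0.0791). Nolc1 (Nopp140), a chaperone of snoRNPs between nucleolus and Cajal bodies, had 5, 5 and 6 in CTR against 6, 6 and 6 in NPM1 KD, a difference of 0.67 (SE 0.338, limma adjusted p = 0.330).

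Fbl (fibrillarin), the methyltransferase of box C/D particles, and its partner Nop56 were at 6 in all 6 libraries. Nop58, the other large box C/D core protein, was at 6, 7 and 7 in CTR and at 7 in each NPM1 KD library. These 3 proteins form one core together, and none of the 3 differed by more than 0.33.

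Of the 4 core proteins of box H/ACA particles, Nop10 had the highest mean of the snoRNP members (214 normalized counts) and was at 7, 7 and 8 in CTR against 8, 8 and 8 in NPM1 KD, a difference of 0.67. Nhp2 was at 7, 7 and 8 against 8, 7 and 7, with no difference of means. Gar1 was at 5 in all libraries but the first NPM1 KD library, where it was at 6. Dkc1 (dyskerin), the pseudouridine synthase itself, had the lowest mean of the 9 (14.1 normalized counts) and was at 3, 3 and 4 in CTR and at 4 in each NPM1 KD library. In Nop10 and Dkc1 the third CTR library reached the NPM1 KD level.

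Dkc1 could also be read as whole reads. There were 10, 10 and 12 reads in CTR against 12, 20 and 18 in NPM1 KD, or 8.06, 7.68 and 10.8 against 15.3, 24.0 and 18.7 once divided by the size factors. The conditions did not overlap after this scaling, whereas the raw numbers met at 12 reads. The log2 fold change from limma's voom fit was 1.14 (SE 0.361), with an adjusted p of 0.125 in that limma fit. In the GENCODE M21 annotation (build GRCm38) exons of Dkc1 overlap those of Mpp1 on the other strand, and exons of Rrp9 overlap those of Parp3. The sources used here do not say whether the counting used strand, so reads of such pairs cannot be told apart.

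The rRNA transcription genes held the member with the highest mean normalized count and, of the 41 members tested, the only one with a lower mean on the rlog scale. Ncl (nucleolin), a major protein of the dense fibrillar component with a mean of 504 normalized counts, was at 9, 9 and 9 in CTR against 9, 8 and 9 in NPM1 KD, a difference of -0.33 (SE 0.336, limma adjusted p = 0.713). Mybbp1a, a nucleolar protein that binds MYB and takes part in control of RNA polymerase I, was at 5, 6 and 5 in CTR and at 6 in each NPM1 KD library. Tcof1 (treacle), a nucleolar phosphoprotein of the fibrillar centre, was at 5 in every library but the first NPM1 KD library, where it was at 6.

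Ubtf (UBF), which keeps ribosomal DNA repeats open for RNA polymerase I, was at 4 in all 6 libraries. In whole reads Ubtf had 23, 22 and 26 in CTR against 9, 17 and 24 in NPM1 KD, or 18.5, 16.9 and 23.3 against 11.5, 20.4 and 24.98 per size factor. Its log2 fold change was -0.04 (SE 0.316), and the conditions overlapped. Rrn3 (TIF-IA), the factor that carries RNA polymerase I to its promoter, had the lowest mean of the 5 (12.9 normalized counts), with rlog values of 4, 3 and 4 in CTR against 3, 4 and 4 in NPM1 KD. Rrn3 had 13, 9 and 16 reads in CTR against 6, 11 and 24 in NPM1 KD, and its log2 fold change was 0.51 (SE 0.409, limma adjusted p = 0.539).

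Of the 15 small subunit genes, 6 (Noc4l, Rrp12, Heatr1, Pno1, Tsr1 and Emg1) were below the filter for the test. Of the 9 tested, 6 were higher in NPM1 KD, 3 were equal and none was lower. Wdr75, a WD-repeat protein of the complex that joins the nascent precursor first (the UTP-A complex), had rlog values of 5, 5 and 5 in CTR against 6, 6 and 6 in NPM1 KD, a difference of 1.00 (SE 0.336, limma adjusted p = 0.0791). Its partner in that complex Wdr43 had the highest mean of the group (58.3 normalized counts) and stayed at 6 in all 6 libraries. Another member of the complex, Heatr1, had 7, 6 and 9 reads in CTR against 3, 6 and 6 in NPM1 KD, which overlapped after scaling.

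Imp4, Imp3 and Mphosph10 form a trimer that binds the U3 snoRNP to the precursor. Imp4 was at 4, 4 and 4 in CTR against 5, 5 and 5 in NPM1 KD on the rlog scale, a difference of 1.00 (SE 0.331, limma adjusted p = 0.0791). Mphosph10 was at 4, 4 and 4 in CTR against 5, 4 and 5 in NPM1 KD, a difference of 0.67 (SE 0.334, limma adjusted p = 0.330). Imp3 was at 5 in all 6 libraries.

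In whole reads Imp4 had 9, 18 and 22 in CTR against 22, 25 and 35 in NPM1 KD, or 13.6 ± 6.25 (SD, n = 3) against 31.5 ± 4.37 (SD, n = 3) per size factor. All NPM1 KD libraries lay above all CTR libraries after this scaling, and the log2 fold change was 1.33 (SE 0.317, limma adjusted p = 0.0813). Without the third CTR library the log2 fold change was 1.63, with an adjusted p of 0.0456 in limma, while leaving out each of the other 5 libraries gave an adjusted p of 0.109 to 0.248 in limma and log2 fold changes down to 0.96. The exons of Imp4 overlap those of a predicted gene on the other strand, Gm28306, in GENCODE M21.

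Among the other small subunit factors no member separated between conditions. Nob1, the endonuclease that makes the final cut at the end of 18S rRNA, was at 5 in all libraries but the second NPM1 KD library, where it was at 6. Its partner Pno1 had 1, 2 and 8 reads in CTR against 7, 4 and 8 in NPM1 KD, a ratio of means of 2.32 that rests on 30 reads in all, from a gene below the filter. Ltv1, a factor of the late small subunit in the cytoplasm, was at 5 in all libraries but the third NPM1 KD library. Those 3 factors act late, and on the rlog scale the conditions overlapped in each. Of all genes tested only 2.19% lay wholly higher and 3.41% wholly lower, so this does not set the 3 apart.

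Bysl (bystin) had 23, 17 and 15 reads in CTR against 9, 22 and 19 in NPM1 KD, with a log2 fold change of 0.32 (SE 0.340). Nop14 had 21, 26 and 29 reads in CTR against 23, 8 and 28 in NPM1 KD, with a log2 fold change of 0.02 (SE 0.338), and its partner Noc4l had 11, 12 and 7 against 2, 9 and 13. Emg1, a methyltransferase that modifies a pseudouridine of 18S rRNA, had the lowest mean of the group (1.84 normalized counts), with 1, 3 and 2 reads in CTR against 2, 3 and 0 in NPM1 KD. Tsr1 had 0, 2 and 3 reads against 2, 2 and 3, and Rrp12 had 9, 6 and 4 against 3, 8 and 14. The normalized reads of Rrp12 had a ratio of means of 1.81, and those of all 6 genes below the filter overlapped between conditions.

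**Figure D3:**
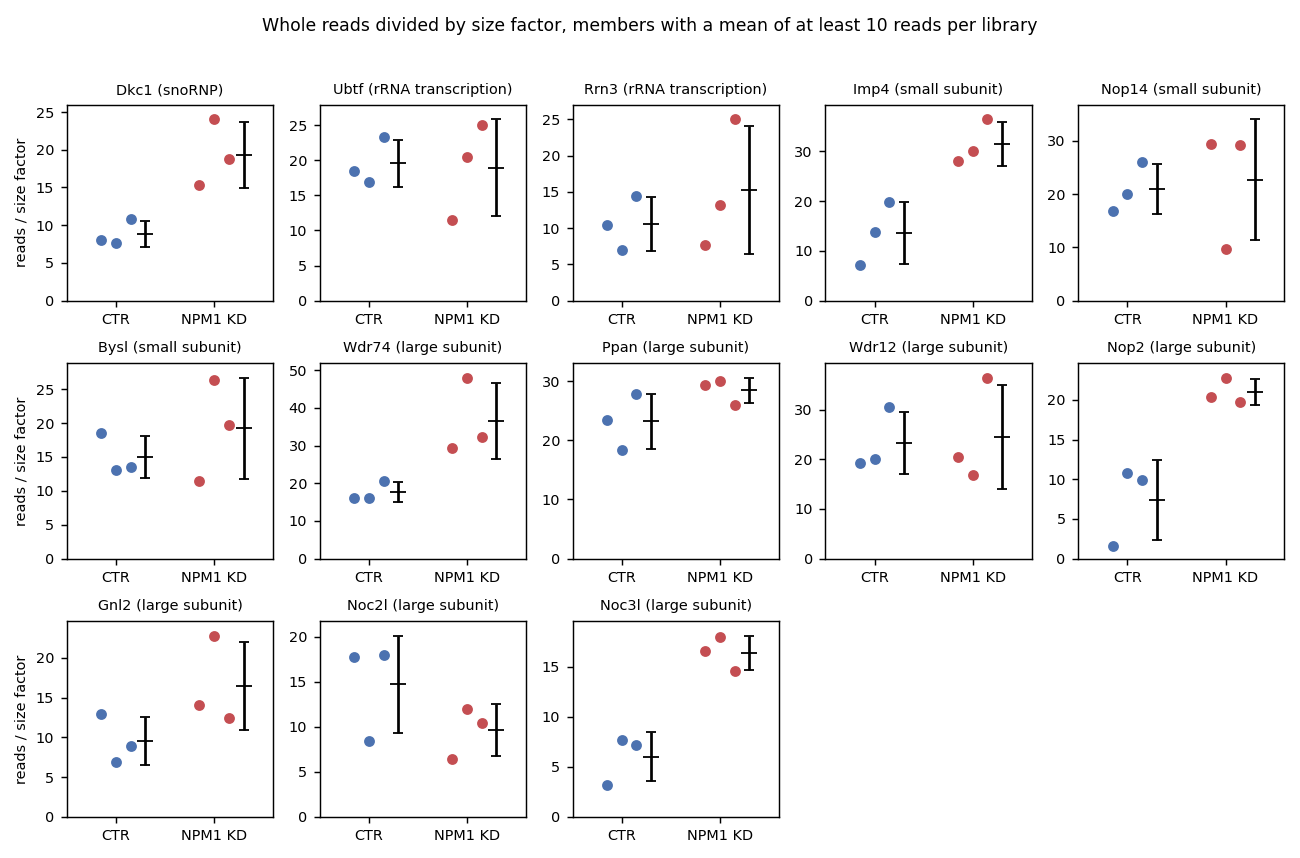
Whole reads divided by size factor (vertical axis, from 0) in the 3 CTR libraries (blue) and the 3 NPM1 KD libraries (red) for the 13 members with whole reads and a mean of at least 10 reads per library. Black marks are the mean and SD of 3 libraries; Dkc1, Imp4, Wdr74, Nop2 and Noc3l have all red points above all blue points.

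The large subunit genes included 3 of the 5 members whose normalized reads did not overlap. This is 42.9% of the 7 tested in reads, beside 10.5% of all genes that lay wholly higher. Noc3l and Nop2 reached the read minimum only through NPM1 KD, so they had to be higher. Of all 88 genes that did so, 61.4% did not overlap. Of the 18 tested on the rlog scale, 12 were higher in NPM1 KD, 6 were equal and none was lower. Noc3l, which joins precursors of the large subunit in a complex with Noc2l, was at 3, 3 and 3 in CTR against 4, 4 and 4 in NPM1 KD on the rlog scale, a difference of 1.00 (SE 0.389, limma adjusted p = 0.166). There were 4, 10 and 8 reads of Noc3l in CTR against 13, 15 and 14 in NPM1 KD, so the read numbers themselves did not overlap although the NPM1 KD libraries were shallower. Per size factor this is 6.03 ± 2.44 (SD, n = 3) against 16.4 ± 1.73 (SD, n = 3), with a log2 fold change of 1.48 (SE 0.546, limma adjusted p = 0.197).

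Its partner Noc2l went the other way in the mean. Noc2l had 22, 11 and 20 reads in CTR against 5, 10 and 10 in NPM1 KD, or 17.7, 8.45 and 17.9 against 6.38, 12.01 and 10.4 per size factor, which overlapped. The log2 fold change was -0.47 (SE 0.493, limma adjusted p = 0.642). Exons of Noc2l overlap those of Samd11 on the other strand in GENCODE M21.

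Nop2, a methyltransferase of 28S rRNA, had 2, 14 and 11 reads in CTR against 16, 19 and 19 in NPM1 KD. Per size factor these were 1.61, 10.8 and 9.87 against 20.4, 22.8 and 19.8, so the first CTR library was far below the other CTR libraries and the conditions did not overlap. The log2 fold change was 1.83 (SE 0.570, limma adjusted p = 0.125), and without the first CTR library it was 1.00. Its rlog values of 3, 4 and 4 in CTR against 4, 4 and 4 in NPM1 KD did overlap.

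Wdr74, a WD-repeat protein that works with the AAA ATPase Nvl on early large subunit particles, had 20, 21 and 23 reads in CTR against 23, 40 and 31 in NPM1 KD. Per size factor this is 17.6 ± 2.61 (SD, n = 3) against 36.6 ± 10.0 (SD, n = 3), with a log2 fold change of 1.04 (SE 0.270, limma adjusted p = 0.0930). Its rlog values were 4, 4 and 5 in CTR against 5, 5 and 5 in NPM1 KD. The groups were apart in scaled reads and met at the third CTR library on the rlog scale.

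The subunits of the PeBoW complex, Pes1, Bop1 and Wdr12, which is needed to process the precursor of 28S and 5.8S rRNA, overlapped between conditions in all 3 cases. Wdr12 had 24, 26 and 34 reads in CTR against 16, 14 and 35 in NPM1 KD, with a log2 fold change of 0.11 (SE 0.297). On the rlog scale Bop1 was at 3, 3 and 3 in CTR against 2, 3 and 2 in NPM1 KD, a difference of -0.67, the lowest of the 49 members, from a gene below the filter. Bop1 had 7, 8 and 9 reads in CTR against 2, 6 and 5 in NPM1 KD, or 6.62 ± 1.29 (SD, n = 3) against 4.99 ± 2.33 (SD, n = 3) per size factor. Pes1 had rlog values of 4, 4 and 5 in CTR against 5, 5 and 4 in NPM1 KD.

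Rrs1 and Rpf2 together bring the 5S rRNA particle into the large subunit. Rrs1 was at 5, 5 and 5 in CTR against 6, 5 and 6 in NPM1 KD on the rlog scale, a difference of 0.67 (SE 0.334, limma adjusted p = 0.330), while Rpf2 was at 6 in all 6 libraries. Brix1, a paralogue of Rpf2, was at 5, 6 and 5 in CTR and at 6 in each NPM1 KD library, and Nop16 was at 6, 6 and 6 in CTR against 7, 6 and 7 in NPM1 KD.

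Among the nucleolar GTPases, Gnl2 had 16, 9 and 10 reads in CTR against 11, 19 and 12 in NPM1 KD, with a log2 fold change of 0.76 (SE 0.377, limma adjusted p = 0.335). Gnl3 (nucleostemin) was at 5, 4 and 5 in CTR and at 5 in each NPM1 KD library. Ppan, a protein of the Brix family and not a GTPase, had 29, 24 and 31 reads in CTR against 23, 25 and 25 in NPM1 KD, with a log2 fold change of 0.33 (SE 0.251). The values of Gnl2, Gnl3 and Ppan overlapped between conditions.

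Surf6 had the highest mean of the large subunit group (267 normalized counts) and was at 8 in all libraries but the first NPM1 KD library, where it was at 9. Nle1, which helps to release early factors from the large subunit, had the lowest mean of the 49 (0.8998 normalized counts), with 0, 1 and 4 reads in CTR against 0, 0 and 1 in NPM1 KD. Of the rest, Rrp1 was at 7 in all 6 libraries, Mrto4 and Ebna1bp2 had equal means, and Nip7 was higher by 0.33. GENCODE M21 lists 2 pseudogenes of Mrto4, and reads may have been split between them.

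In the whole-read fit no member was called either. Of the 13 members with a mean of at least 10 reads, 11 had a positive log2 fold change and 2 a negative one, with a median of 0.51 beside -0.03 over all 2494 genes in that fit. In limma's voom fit 0 of 13 were called, beside 0.0401% of all genes. At an unadjusted p below 0.05 there were 5 members (Imp4, Wdr74, Nop2, Dkc1 and Noc3l), all higher, beside 7.74% of all genes in that direction and 7.26% in the other. Nop2 and Noc3l reached the minimum only through NPM1 KD, so they had to differ, and Noc2l only through CTR. Of the other 10 members, which reached it in both conditions, 9 were higher and 3 were at that level. Of all 1597 genes that reached it in both, 1012 were higher, 9.33% were higher at that level and 13.0% lay wholly above CTR. Through CTR alone 809 genes reached it, 723 of them lower, and through NPM1 KD alone 88, so shares over all 2494 genes lean lower. The 5 members named were also those whose scaled reads lay above CTR in every NPM1 KD library. Of all genes 10.5% did so and 14.9% lay below. Without voom's weights Imp4, Nop2 and Wdr74 were called, and with genes down to a mean of 5 reads Imp4 and Nop2 were. A fit that treats same-numbered libraries as paired called Imp4 and Wdr74, among 54 genes called higher and 46 lower. Whether the numbers mark pairs was not settled. Imp4 and Noc3l are the 2 members that separated on both scales, although the read numbers were chosen to match the rlog values. The raw sums over the 21 members with whole reads were 252, 257 and 303 in CTR against 209, 283 and 344 in NPM1 KD. Per size factor they were 203, 197 and 272 against 267, 340 and 358, which overlapped as well. The means were 271 against 279 before scaling and 224 against 322 after it. Over all genes with whole reads the raw sums were 82910, 83790 and 70063 in CTR against 46961, 52513 and 58721 in NPM1 KD. The part of depth in the results was not tested.

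**Figure D4:**
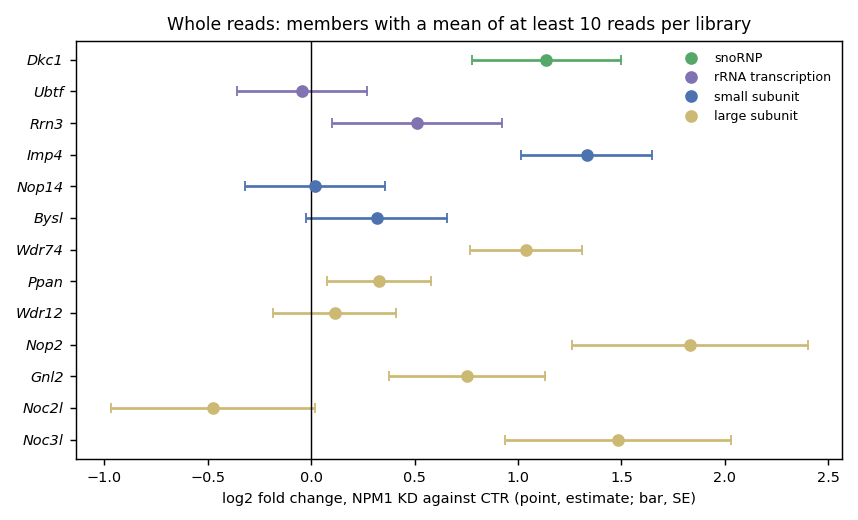
Log2 fold change of NPM1 KD against CTR (horizontal axis, points, with the SE as bars) from whole reads for the 13 members with a mean of at least 10 reads per library, coloured by role. Imp4, Wdr74, Noc3l, Nop2 and Dkc1 lie between 1.04 and 1.83, and Ubtf (-0.04) and Noc2l (-0.47) are the 2 members below 0.

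The promoters of the members that separated are shown because the results turn on these genes. The stretches below are the 100 bases before the RefSeq start on the strand of the gene, in build GRCm38.p6, and capitals mark matches to the motifs listed after them. Rrp9 is left out because its RefSeq start lies 1346 bases inside the gene as GENCODE M21 draws it. They are Imp4 at chr1:34439729-34439828 (plus strand), Wdr75 at chr1:45795066-45795165 (plus), Noc3l at chr19:38819238-38819337 (minus), Nop2 at chr6:125131783-125131882 (plus), Wdr74 at chr19:8735739-8735838 (plus) and Dkc1 at chrX:75095754-75095853 (plus).
Imp4: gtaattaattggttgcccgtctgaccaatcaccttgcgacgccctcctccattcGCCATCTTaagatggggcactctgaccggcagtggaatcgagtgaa
Wdr75: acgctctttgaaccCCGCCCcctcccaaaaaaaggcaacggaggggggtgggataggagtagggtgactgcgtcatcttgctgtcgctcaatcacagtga
Noc3l: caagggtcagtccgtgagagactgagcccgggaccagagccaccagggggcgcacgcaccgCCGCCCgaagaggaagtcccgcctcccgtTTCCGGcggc
Nop2: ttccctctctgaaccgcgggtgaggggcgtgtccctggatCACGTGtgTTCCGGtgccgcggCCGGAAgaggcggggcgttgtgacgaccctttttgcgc
Wdr74: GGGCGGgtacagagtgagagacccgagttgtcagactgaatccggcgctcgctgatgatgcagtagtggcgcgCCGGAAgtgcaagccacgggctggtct
Dkc1: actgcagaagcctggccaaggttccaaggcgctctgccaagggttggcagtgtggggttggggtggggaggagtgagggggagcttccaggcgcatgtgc

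The motifs searched on both strands were CACGTG, the E-box bound by MYC and USF proteins, CCGGAA, the core of sites for ETS proteins, and GGGCGG, known as a site for SP1 proteins. Others were TGCGCA, the core of sites for NRF1, AAGATGGC, bound by the protein YY1, and TATAAA, known as the TATA box. In the stretches shown, Nop2 held an E-box and an ETS core on each strand, Noc3l and Wdr74 held an ETS core and a GGGCGG each, Wdr75 held a GGGCGG, Imp4 held the YY1 letters and Dkc1 held none of the 6. No matches overlapped there. Imp4 also had an E-box at position -121 from its start, just outside the stretch.

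Windows of 250 bases before to 50 after the start, 1 per gene from RefSeq, were given for 43 of the 49 members. An E-box was present in 11 of these, 25.6%, beside 11.7% of the 4334 windows of genes tested on the rlog scale and 7.24% of all 27025 windows. The 43 include members below the filter, unlike the 4334. Among members tested, 8 had an E-box and 29 did not. The ETS core was present in 22, 51.2%, beside 33.0% and 15.2%, and among members tested 19 had it and 18 did not. The 22 include Rrp9, whose RefSeq start lies 1346 bases inside the gene as GENCODE M21 draws it. GGGCGG was in 58.1% of the members' windows beside 68.9% and 35.9%, the NRF1 core in 14.0% beside 17.6% and 8.06%, the YY1 letters in 2.33% beside 6.48% and 2.88%, and TATAAA in 6.98% beside 6.62% and 14.2%.

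By role, E-boxes were in 5 of 14 small subunit, 4 of 17 large subunit, 2 of 4 rRNA transcription and 0 of 8 snoRNP windows. Of the members tested, 5 of 8 with one and 18 of 29 without one were higher in NPM1 KD, with a median difference of 0.33 in both. For the ETS core these were 13 of 19 with and 10 of 18 without, with Rrp9 among the 13. These are matches of letters and were not tested as binding sites.

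**Figure D5:**
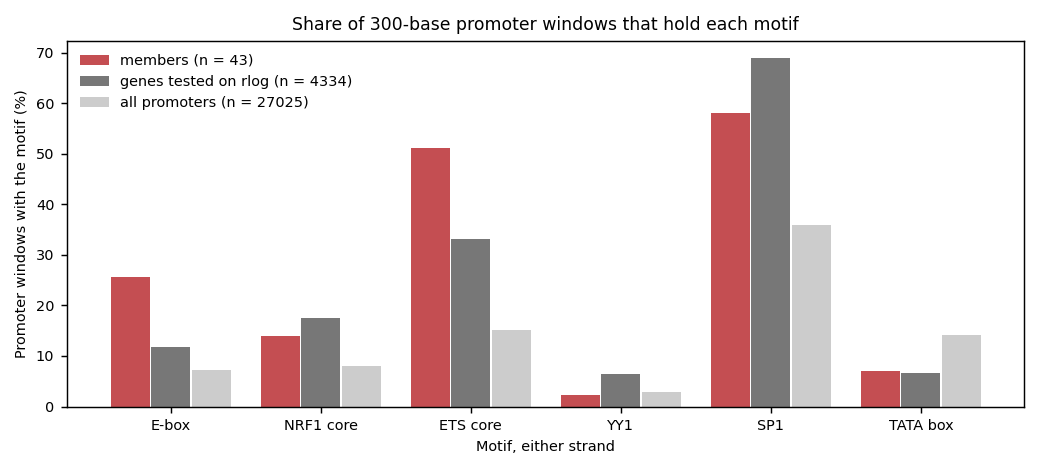
Share of promoter windows (vertical axis, percent) with each of 6 motifs on either strand (horizontal axis) for the 43 members with a window (red), for genes tested on the rlog scale (dark grey) and for all promoters (light grey). The E-box (25.6%) and the ETS core (51.2%) stand above both grey bars, and GGGCGG (58.1%) stands between them.

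Several members carry snoRNA genes in their own transcription units. In GENCODE M21, 8 of the 49 had at least 1 annotated snoRNA gene within them on the same strand, 23 in all. They were Nop56 with 5, Nop58 with 4, Ncl, Wdr43 and Gnl3 with 3 each, Tsr1 and Ppan with 2 each and Dkc1 with 1. None of the 8 separated between conditions on the rlog scale, beside 2.19% of all genes tested that lay wholly higher and 3.41% wholly lower. Of the 3 with whole reads (Dkc1, Ppan and Tsr1, the last below the filter) Dkc1 lay wholly higher in scaled reads. Of all genes tested in reads 10.5% did so and 14.9% lay wholly lower, so these counts do not set the 8 apart. The read numbers are those of the gene as a whole and say nothing of the snoRNAs.

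Genes of the same pathway outside the 49, such as subunits of RNA polymerase I, further small and large subunit factors and the nuclear exosome, gave a like picture. Their list was chosen with earlier results of these data known. Of 101 listed, 98 were in the table and 76 were tested on the rlog scale. Of these 76, 46 (60.5%) were higher in NPM1 KD, 25 were equal and 5 were lower, beside 24.6% of all genes that were higher. The median difference was 0.33. Krr1, Nol11, Pelp1 and Utp25 passed the filter only through NPM1 KD, so they had to be higher. None of the 76 was called, beside 0.487% of all genes. An unadjusted p below 0.05 in limma was reached by 19 of them, all higher, which is 25% beside 6.07% of all genes in that direction. In whole reads 25 were tested and 1 was called, beside 0.0401% of all genes.

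This gene was Ccdc86 (cyclon), a nucleolar coiled-coil protein. It had 10, 10 and 12 reads in CTR against 35, 26 and 27 in NPM1 KD, or 8.83 ± 1.69 (SD, n = 3) against 34.7 ± 8.80 (SD, n = 3) per size factor. Its log2 fold change was 1.93 (SE 0.333, limma adjusted p = 0.00821), and its rlog values were 4, 4 and 4 against 5, 5 and 5. It was the only gene called in the whole-read fit. The call was lost without CTR replicate 1 (limma adjusted p = 0.104) and without NPM1 KD replicate 1 (limma adjusted p = 0.142), and on the rlog scale the adjusted p in limma was 0.0791.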

How the data were processed

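The sources name no methods for these libraries beyond the labels, since the paper's text does not describe them. The submitters' processing notes name minimap2, featureCounts and build GRCm39, without versions. The authors deposited rlog values, used here as a score on the log2 scale, and a second table from which their mean normalized count per gene was used. That table's fold changes, standard errors, test statistics and p-values were not used. Rows repeating a gene identifier were dropped (26913 rows, 26656 genes). No value column was left unassigned. Depth per library is known here only as size factors. They were first read from the 1272 genes with 1 read in all and then refitted over more genes of low mean. The rlog values decided which factor belonged to which library. SEs do not cover an error in those steps.

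The rlog values were fitted with limma 3.58.1 (R 4.3.3; mean rlog of at least log2 of 10, variances floored at 0.0833, the variance that rounding adds, and a trend of variance with level). Tests were two-sided, and p-values were adjusted by Benjamini-Hochberg over every gene fitted, with a threshold of 0.05. Whole reads, scaled by the size factors, were fitted by limma's voom with the same adjustment (mean of at least 10 reads, pseudocount 0.5). Alternatives changed the variance setting, filter, scaling, weights, pseudocount and pairing, or left out 1 library. The read solving and both fits were tested on simulated data. Values in every library were given for called members, members whose conditions did not overlap, the highest and lowest member of each role and Npm1, and members were otherwise described by role. The members and lists were chosen with earlier results of these data known. Same-numbered libraries were checked for shared deviations, with correlations of 0.00128 to 0.0298 on the rlog scale and 0.0105 to 0.0754 in whole reads. Libraries with unlike numbers had -0.0525 to 0.0338 in whole reads. These were all small, so numbers were not taken as pairs in the main fits, and whether they mark pairs was not settled. Figures were drawn with matplotlib 3.10.9. Some cell type markers that were looked up are not reported here.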

Additional observations from a re-analysis of the deposited data

How the results depend on the processing

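On the rlog scale Npm1 was called under all 13 alternatives and the median over all members stayed between 0.33 and 0.36. Without the floor on the variance 123 genes were called higher and 178 lower, and without the trend 132 and 218, in each case with 4 members (Imp4, Noc3l, Rrp9 and Wdr75). With no filter 1 gene was called higher and 10 lower, and with the replicate block, a fit that treats same-numbered libraries as paired, 1 and 7, with 0 members called and 4 at an unadjusted p below 0.05. Leaving out 1 library gave 0 to 2 genes higher and 5 to 9 lower. The median difference of the small subunit members was 0.17 with a filter of log2 of 5 and 0.0233 with none, that of rRNA transcription was 0.33 with a filter of log2 of 20. Leaving out 1 library moved these medians between 0.17 and 0.50 and between 0 and 0.17, and that of the large subunit between 0.33 and 0.50. Filters changed which members entered; causes of the other shifts were not tested.

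In whole reads 24 genes were called higher and 56 lower without voom weights, with 3 members (Imp4, Nop2 and Wdr74). A minimum of 5 reads gave 16 and 27, with 2 members (Imp4 and Nop2), and one of 20 reads gave 0 higher, with medians of 0.73 for the small and 0.34 for the large subunit. A pseudocount of 2 gave 2 higher and scaling to total solved reads gave 3. The replicate block gave 54 and 46, with 2 members (Imp4 and Wdr74). It stands apart from the block on the rlog scale, and whether the numbers pair the libraries was not settled. Leaving out 1 library gave 0 to 4 genes higher, 0 to 5 lower and 0 to 1 members, and medians of 0.21 to 0.83 for all members, 0.21 to 0.61 for the small and 0.50 to 0.99 for the large subunit. The rounding limits what one library can show on the rlog scale, and the read numbers limit the rest.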
